A study of Mus musculus with 2 samples.

Results

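The interferon-inducible GTPases described here are 10 genes: the guanylate-binding proteins *Gbp2*, *Gbp3*, *Gbp4*, *Gbp6*, *Gbp7* and *Gbp9*, and the immunity-related GTPases *Igtp*, *Irgm1*, *Irgm2* and *Iigp1*. They were taken by symbol from the 27998 gene rows of the deposited tables, and all 10 had counts. Immune cells positive for CD45 were isolated by flow sorting from brain tissue of C57Bl/6 mice at p21, and each cell's transcripts were counted as unique molecular identifiers (UMIs) with the 10x Genomics 3′ v2 assay. The WT library came from galc+/+ littermates and the twi library from galc-/- mice; neither received a treatment. Twi mice carry a germline loss of galactosylceramidase, the lysosomal enzyme whose absence causes globoid cell leukodystrophy (Krabbe's disease). Each genotype was 1 library made from a pool of 2 to 3 animals, so no replicate error could be estimated and no test was made. All intervals are exact 95% intervals for counting error alone, and a difference beyond them compares these libraries, not the genotypes.

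GBPs and IRGs are GTPases whose genes are switched on by interferons through gamma-activated (GAS) and interferon-stimulated response (ISRE) elements near the gene start. GBPs assemble on the membranes of vacuoles that hold microbes and help to activate inflammasomes. The effector IRG *Iigp1* damages such vacuoles, whereas *Irgm1*, *Irgm2* and *Igtp* act as regulators that hold effector IRGs off the cell's own membranes. In T cells these genes are commonly read as a sign that interferon has reached the cell.

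RefSeq promoter entries on GRCm38.p6, which run from 250 bases before to 50 bases after a gene start, were found for 6 of the 10 genes, with 2 starts for *Gbp3*. They are shown because the genes were counted together as interferon-inducible, and these are the elements by which that response is known. Both strands were searched for the ISRE core GAAANNGAAA and for the GAS core TTCNNNGAA, whose matches may overlap other motifs. Each of the 6 genes had an entry with at least 1 ISRE core and 3 of them also a GAS core, while the second start of *Gbp3* had neither. Over the whole table, the ISRE core was in 3.44% and the GAS core in 8.30% of 32851 entries of the same length. The 120 bases before the start are given on the gene strand, 5′ to 3′, with the matches in capitals, at chr3:142620543-142620662 (plus strand) for *Gbp2*, chr3:142559924-142560043 (plus) for the first start of *Gbp3*, chr3:142530216-142530335 (plus) for *Gbp7*, chr11:58199436-58199555 (plus) for *Igtp*, chr11:58214857-58214976 (plus) for *Irgm2* and chr11:48871421-48871540 (minus) for *Irgm1*.
Gbp2: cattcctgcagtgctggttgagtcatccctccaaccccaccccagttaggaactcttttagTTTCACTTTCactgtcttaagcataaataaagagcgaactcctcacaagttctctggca
Gbp3: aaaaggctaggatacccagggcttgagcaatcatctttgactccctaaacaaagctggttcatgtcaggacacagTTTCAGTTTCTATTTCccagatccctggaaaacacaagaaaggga
Gbp7: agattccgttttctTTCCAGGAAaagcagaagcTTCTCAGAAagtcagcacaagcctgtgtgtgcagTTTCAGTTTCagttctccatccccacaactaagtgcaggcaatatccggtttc
Igtp: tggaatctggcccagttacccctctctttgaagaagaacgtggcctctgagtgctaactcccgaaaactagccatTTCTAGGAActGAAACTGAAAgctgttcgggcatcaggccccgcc
Irgm2: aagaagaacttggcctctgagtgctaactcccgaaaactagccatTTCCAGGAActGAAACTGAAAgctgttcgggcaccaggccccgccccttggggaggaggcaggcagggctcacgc
Irgm1: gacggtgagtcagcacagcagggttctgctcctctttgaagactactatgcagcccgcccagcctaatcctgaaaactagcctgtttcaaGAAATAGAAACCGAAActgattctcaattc
The ISRE core began 59 bases before the start of *Gbp2*, 53 before *Gbp7*, 34 before *Igtp* and 64 before *Irgm2*. It was present as overlapping copies at 45 and 39 bases in *Gbp3* and at 30 and 24 bases in *Irgm1*. *Gbp7* had GAS cores at 106 and 87 bases, *Igtp* at 45 and *Irgm2* at 75. *Igtp* and *Irgm2* have the same ISRE letters with a GAS core just before them. Their entries also share an identical run of 61 bases. It begins 11 bases before the *Igtp* start and 41 bases before the *Irgm2* start. Most of the run lies after the *Igtp* start. It reaches the end of the *Igtp* entry, so where the identity ends is not known. The starts are those of RefSeq, and some differ from the GENCODE gene coordinates given below. The *Irgm2* and *Irgm1* stretches lie inside those gene models, and parts of the *Gbp2* and *Gbp3* stretches do too. The motif matches are descriptions of sequence, and binding was not measured.

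The WT library held 3749714 UMIs in 1278 barcodes and the twi library 4807539 UMIs in 1220 barcodes, with medians of 2216 and 3149.5 UMIs and 0 shared barcodes. Barcodes with more than 15% mitochondrial UMIs were left out, which kept 1271 WT and 1207 twi cells. *Galc* had 4 UMIs in WT and 8 in twi, which checks nothing about the labels because a 3′ count does not read the mutation. Transcripts of the female-specific gene *Xist* without a Y-linked transcript were seen in 0% of WT cells and 45.4% of twi cells, so the pools differed in the sex of their animals. Transcripts of other cell types differed too: B cells carried the neutrophil transcripts *S100a8* and *S100a9* at 1008 CPM (UMIs per 1000000 UMIs of the class) in WT and 304 in twi, and hemoglobin transcripts at 1102 and 653. In the other direction, *Cd8a* and *Cd8b1* transcripts in B cells were at 1.52 CPM in WT (0.368% of cells) and 44.7 in twi (10.2%), and in monocytes at 3.73 and 34.3 CPM. Cells were placed in classes by marker UMIs. T cells carried *Cd3d*, *Cd3e* or *Cd3g*, and were CD8+ with *Cd8a* or *Cd8b1* but no *Cd4*, and CD4+ with *Cd4* but neither of the others. T cells with neither kind of marker and at least 2 UMIs of a set of IL-17-type γδ markers, among them *Cd163l1*, *Il17re*, *Sox13* and *Blk*, are called γδ-marker T cells. The remaining T cells, 135 WT and 250 twi cells with neither kind and 6 WT and 16 twi cells with both, are called other T cells. The cells called microglia were 17 WT and 12 twi cells chosen by their C1q transcripts, which macrophages also carry. The microglia genes *P2ry12*, *Tmem119* and *Sall1*, which the gate did not use, were seen in 94.1% of the WT and 75% of the twi cells of this class, at 9482 and 1837 CPM, and the class is called by its gate.

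CD8+ T cells of the twi library carried about 2 times the WT level of GTPase transcripts. The 110 WT cells held 137 UMIs of the 10 genes, or 311 CPM (95% interval 261 to 368), and the 440 twi cells held 1359, or 661 CPM (95% interval 626 to 697). The ratio of the CPM, twi over WT unless another pair is named, was 2.13 (95% interval 1.78 to 2.55), and the intervals of the levels did not overlap. CD8+ T cells also made up more of the twi library, 36.5% against 8.65% of cells. The ratio was 1.52 (95% interval 1.16 to 2) among cells with a Y-linked transcript and no *Xist*. In WT this choice kept 51 cells at 385 CPM and left out 59 cells with neither transcript at 221 CPM, although no WT cell had *Xist* alone. The ratio was 4.70 (95% interval 2.64 to 9.23) when cells were reduced to 1000 UMIs each before the classes were set. That value rested on 12 UMIs in 81 WT cells and 241 UMIs in 346 twi cells. On so few WT UMIs, *Gbp4* then had a ratio of 7.26 (95% interval 1.21 to 296) and *Gbp7* of 6.32 (95% interval 1.67 to 53.5). Some markers used to set other classes differed between the libraries in this class. B cell markers were at 114 CPM in WT and 40.9 in twi, and *S100a8* and *S100a9* at 947 and 299. NK markers, which the CD8+ gate did not exclude, were at 74.9 and 175. C1q genes lay close together, at 15.9 and 12.2 on few UMIs. The part of these transcripts in the result was not tested.

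**Figure D1:**
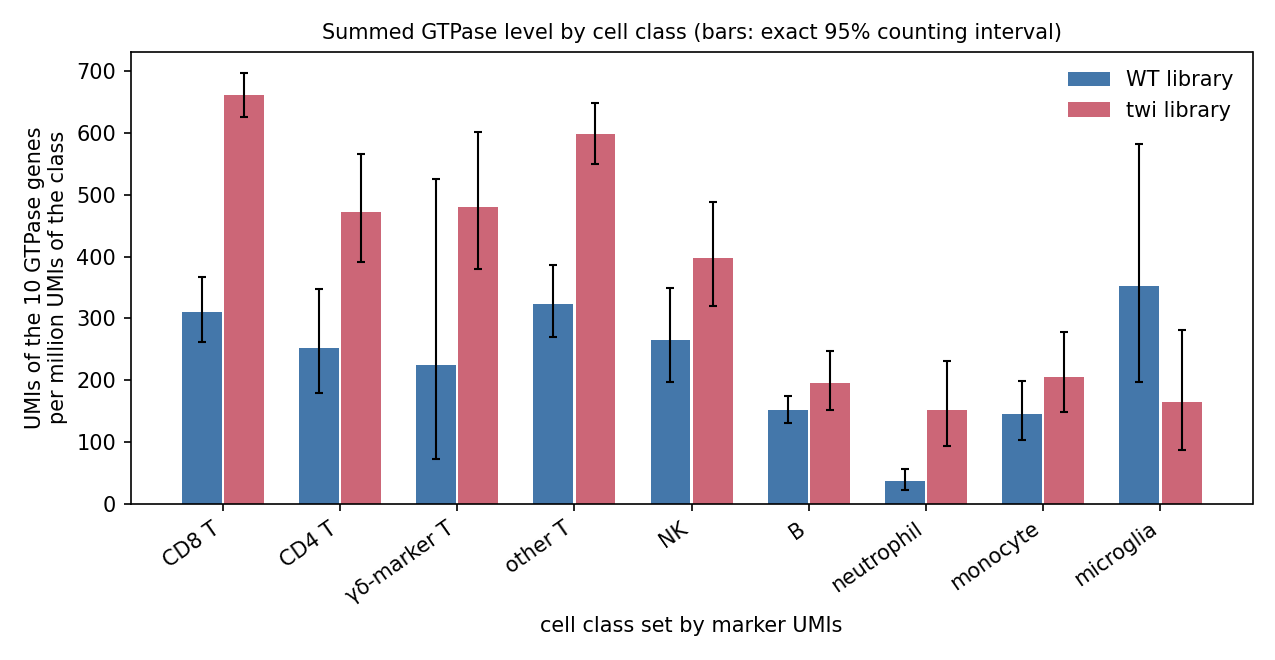
Summed level of the 10 GTPase genes in each cell class, in CPM (vertical axis), for the WT library (blue) and the twi library (red); bars show the level and lines the exact 95% counting interval. CD8+ T cells stood at 311 in WT and 661 in twi, B cells at 152 and 195, and the WT and twi intervals of microglia overlapped.

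Among the GBPs, *Gbp4*, *Gbp7* and *Gbp9* had ratios whose intervals lay above 1 in CD8+ T cells. Among the 51 WT and 60 twi cells with a Y-linked transcript and no *Xist*, all 3 intervals held 1, on far fewer UMIs. Gene coordinates are those of GENCODE M21 on GRCm38. *Gbp7* (chromosome 3, 142530342 to 142550149, plus strand) had 24 UMIs in WT and 268 in twi, or 54.5 and 130 CPM. Its ratio was 2.39 (95% interval 1.57 to 3.80), and it was seen in 18.2% of WT and 38.2% of twi cells. *Gbp4* (chromosome 5, 105115767 to 105139586, minus strand) had 20 UMIs in WT and 207 in twi, or 45.4 and 101 CPM, and the CPM ratio was 2.22 (95% interval 1.40 to 3.71). *Gbp9* (chromosome 5, 105077630 to 105139539, minus strand) had 15 and 143 UMIs, or 34.1 and 69.5 CPM, and the CPM ratio was 2.04 (95% interval 1.20 to 3.74). The gene models of *Gbp4*, *Gbp9* and *Gbp8* overlap on the same strand. The counted *Gbp6* model and that of *Gbp7* also overlap other gene models, whereas *Gbp10* overlaps another *Gbp6* model, which had 0 UMIs. The counts of such overlapping genes are uncertain, and so are counts of near-identical GBP copies in general.

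The other 3 GBPs had ratios whose intervals held 1. *Gbp2* (chromosome 3, 142620602 to 142638008, plus strand) had 24 UMIs in WT and 162 in twi, or 54.5 and 78.8 CPM, and the CPM ratio was 1.45 (95% interval 0.938 to 2.32). *Gbp3* (chromosome 3, 142560026 to 142573209, plus strand) had 8 and 60 UMIs, and the CPM ratio was 1.61 (95% interval 0.765 to 3.89). Among cells with a Y-linked transcript its ratio was 0.842. *Gbp6* (chromosome 5, 105270702 to 105293698, minus strand) had 8 and 61 UMIs, and the CPM ratio was 1.63 (95% interval 0.779 to 3.95). The symbol *Gbp6* has 2 rows in the gene table, and every UMI was in the row of ENSMUSG00000104713. Summed by position, *Gbp2*, *Gbp3* and *Gbp7* of chromosome 3 stood at 127 and 238 CPM (ratio 1.87, 95% interval 1.42 to 2.52), and *Gbp4*, *Gbp6* and *Gbp9* of chromosome 5 at 97.6 and 200 (ratio 2.05, 95% interval 1.49 to 2.87).

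The IRGs together stood at 86.3 CPM in WT and 223 in twi CD8+ T cells, and the CPM ratio was 2.58 (95% interval 1.85 to 3.70). *Irgm1* (chromosome 11, 48861968 to 48871683, minus strand), a regulatory IRG also needed for resistance to many intracellular bacteria, had 6 UMIs in 110 WT cells and 135 UMIs in 440 twi cells. These were 13.6 and 65.7 CPM, and the CPM ratio was 4.82 (95% interval 2.16 to 13.4). *Irgm1* was the member with the highest ratio, but its interval overlapped those of the other members. *Igtp* (chromosome 11, 58199556 to 58207591, plus strand) had 28 and 276 UMIs, or 63.6 and 134 CPM, and the CPM ratio was 2.11 (95% interval 1.43 to 3.24). It was seen in 15.5% of WT and 34.1% of twi cells, and among cells with a Y-linked transcript the interval of its ratio held 1. *Irgm2* (chromosome 11, 58199618 to 58222782, plus strand), whose model overlaps *Igtp* on the same strand, had 1 UMI in WT and 21 in twi, and the CPM ratio was 4.50 (95% interval 0.724 to 186). It was 0.936 when cells were thinned before the classes were set.

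*Iigp1*, the effector IRG, had 3 UMIs in 2 WT cells and 26 UMIs in 18 twi cells among the CD8+ T cells. Its ratio was 1.86 (95% interval 0.569 to 9.58), so a difference was not detectable at this depth. The ratio was 0.994 without the 5% of cells with the most member UMIs per UMI and 0.337 among cells with a Y-linked transcript.

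**Figure D2:**
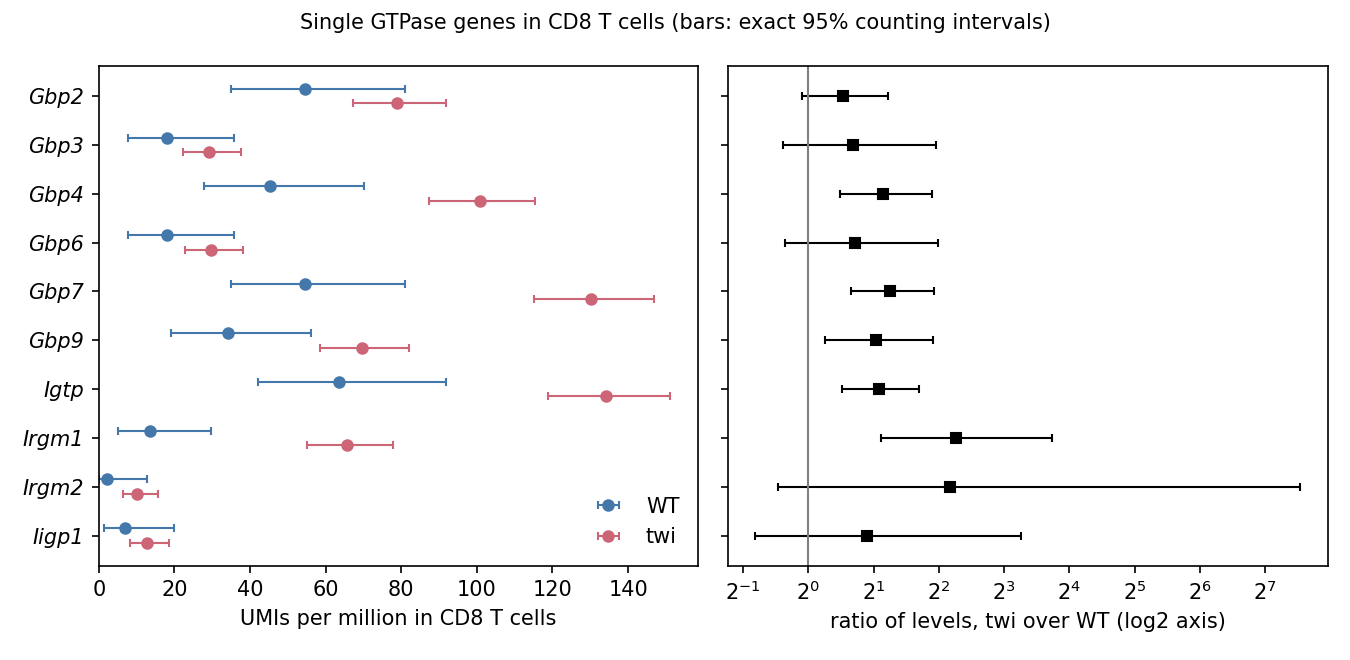
Each GTPase gene in CD8+ T cells: left, CPM in WT (blue) and twi (red) with exact 95% counting intervals; right, the ratio of twi to WT on a log2 axis with its exact interval and a line at a ratio of 1. The interval lies above 1 for *Gbp4*, *Gbp7*, *Gbp9*, *Igtp* and *Irgm1*, and *Irgm2* has the widest interval.

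All 10 genes reached the minimum of 10 UMIs over both CD8+ T cell sums. Of these, *Gbp3*, *Gbp6*, *Irgm1*, *Irgm2* and *Iigp1* had under 10 UMIs in WT and reached it only with their twi UMIs. On the log2 scale with 0.5 UMI added, 5 of the 10 were at least 2 times higher in twi (*Gbp4*, *Gbp7*, *Igtp*, *Irgm1* and *Irgm2*), 0 were at least 2 times lower, and *Gbp9* lay just under the limit at 0.99. The calls of *Irgm1* and *Irgm2* thus passed the minimum through twi, where these genes were higher. Of all 8973 genes with that minimum, 10.1% were at least 2 times higher in twi. The median log2 ratio of the 10 members was 1.02, and that of all 8973 genes was 0.09. The members were chosen with earlier results of these data known. The values over all genes are thus no independent yardstick for them, here or in the other classes. Among cells with a Y-linked transcript and no *Xist*, 1 of the members with at least 10 UMIs there, *Irgm1*, was at least 2 times higher. *Irgm2* and *Iigp1* did not reach 10 UMIs there. The median log2 ratio of the members with at least 10 UMIs there was 0.38. The number at least 2 times higher was between 4 and 7 under the other alternatives. The share and median over all genes are given only for all CD8+ T cells, so these values have none beside them.

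At equal depth, a larger share of twi than of WT CD8+ T cells carried a transcript of the 10 GTPase genes. Reducing every cell to 1000 UMIs left 108 WT and 434 twi CD8+ T cells. A UMI of any of the 10 genes was then seen in 17.6% of WT cells (95% interval 10.9 to 26.1%) and 41.5% of twi cells (95% interval 36.8 to 46.3%). Unthinned, with medians of 3505 and 4001.5 UMIs, the shares were 61.8% and 78.4%. Neutrophils, the class with the lowest level, gave 3.49% of 172 WT cells and 14.0% of 50 twi cells when thinned, and 8.46% and 23.5% unthinned at medians of 2222 and 1953 UMIs. No class known to lack these genes was at hand. *Gbp7* was in 4.63% of thinned WT and 13.4% of thinned twi CD8+ T cells, and *Igtp* in 6.48% and 10.8%. *Irgm1* was in 0 of 108 thinned WT cells, a count that leaves room for up to 2.78%, and in 6.45% of twi cells.

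Single cells differed in how many of the genes they carried. The mean number of distinct members per thinned CD8+ T cell was 0.241 in WT and 0.622 in twi, and the ratio of the means was 2.58 (95% interval 1.73 to 4.03). This interval counts each detection separately, although 1 cell can give several. It does not cover the variation between cells and is too narrow for a ratio of means per cell. At least 3 distinct members were in 1 of 108 WT cells and in 17 of 434 twi cells, with a maximum of 4 and 5 members. At their own depth, 8 of 110 WT cells and 144 of 440 twi cells carried at least 3. The most in a single cell was 7 of the 10 in WT and 9 in twi. Transcripts were concentrated in few cells in both libraries: the 6 highest WT cells held 34.3% of the class's member UMIs, and the 22 highest twi cells 26.6%. The highest WT cell had 24 of the 137 UMIs and the highest twi cell 36 of the 1359.

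**Figure D3:**
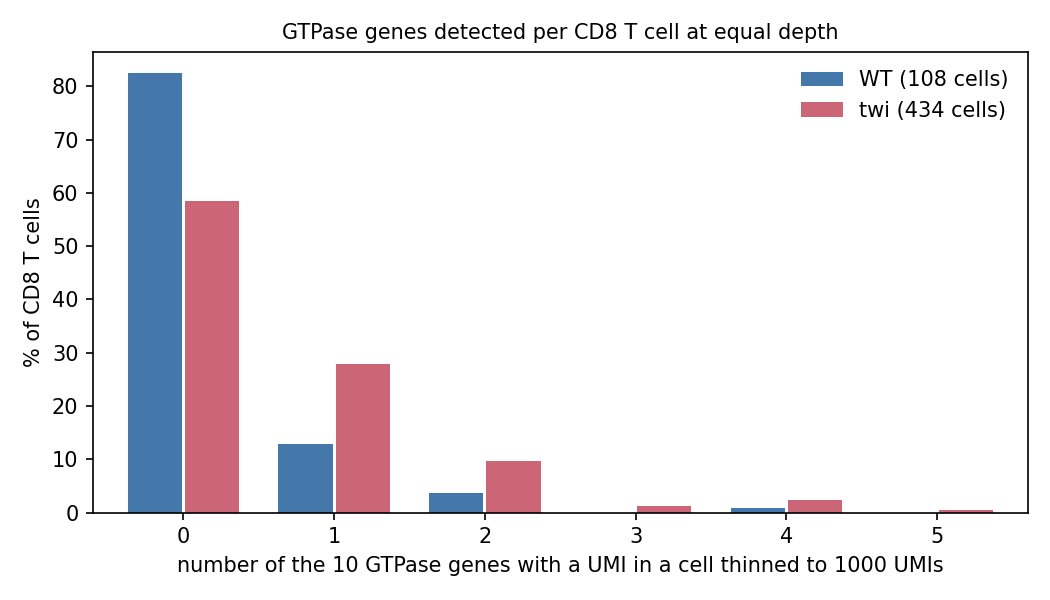
Share of CD8+ T cells (vertical axis, in %) by the number of the 10 GTPase genes with a UMI (horizontal axis), after thinning each cell to 1000 UMIs, for 108 WT (blue) and 434 twi (red) cells. No gene was seen in 82.4% of WT and 58.5% of twi cells, and 2 genes were seen in 3.70% and 9.68%.

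CD8+ T cells were divided by their own markers. Effector-marked cells had at least 3 UMIs of *Ccl5*, *Nkg7*, *Gzmb* and *Cxcr6* together, and naive-marked cells had fewer and a UMI of a set of naive markers, among them *Ccr7* and *Lef1*. Effector-marked cells made up 67.3% of the WT and 92.3% of the twi CD8+ T cells. Their GTPase level was 314 CPM in 74 WT cells and 672 in 406 twi cells, and the CPM ratio was 2.14 (95% interval 1.76 to 2.64). Naive-marked cells stood at 303 CPM in 34 WT cells and 388 in 27 twi cells, and the CPM ratio was 1.28 (95% interval 0.750 to 2.19). Whether these ratios differ from each other was not tested.

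Within the WT library the effector-marked cells were at 1.03 times the naive-marked level (95% interval 0.684 to 1.61), and within the twi library at 1.73 times (95% interval 1.21 to 2.56). Per gene in twi, *Gbp2* had 158 UMIs in effector-marked and 1 in naive-marked cells, and the effector-to-naive CPM ratio was 6.42 (95% interval 1.14 to 255). *Irgm1* had 134 and 1, and this ratio was 5.44 (95% interval 0.960 to 217). *Igtp* had 265 and 9, and this ratio was 1.20 (95% interval 0.621 to 2.64). The naive-marked sum of 31 UMIs was too small to tell the genes apart.

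The sex transcripts were set beside these levels. In twi, CD8+ T cells with *Xist* and no Y-linked transcript stood at 702 CPM (253 cells) and those with a Y-linked transcript and no *Xist* at 586 (60 cells), and the ratio of the first to the second was 1.20 (95% interval 1.001 to 1.44). In WT, cells with a Y-linked transcript stood at 385 (51 cells, median 3927 UMIs), and cells with neither transcript at 221 (59 cells, median 3351 UMIs), although no WT cell had *Xist* alone. Among effector-marked cells with a Y-linked transcript, twi was at 1.59 times the WT level (95% interval 1.18 to 2.15), 586 against 368 CPM. Naive-marked cells with a Y-linked transcript stood at 773 CPM in 4 twi cells and 467 in 14 WT cells. Their ratio was 1.66 (95% interval 0.664 to 3.805), on too few cells to set the 2 subsets apart. In cells with a Y-linked transcript *Irgm1* had 3 UMIs in WT and 17 in twi (ratio 5.73, 95% interval 1.66 to 30.5), and the interval lay above 1 for *Irgm1* alone of the 10 members. *Gbp4* had 12 and 23 UMIs (ratio 1.94, 95% interval 0.925 to 4.27), *Gbp7* 17 and 27 (ratio 1.61, 95% interval 0.844 to 3.14), *Gbp9* 9 and 11 (ratio 1.24, 95% interval 0.4655 to 3.37) and *Igtp* 21 and 29 (ratio 1.40, 95% interval 0.769 to 2.575). The animals behind these cells cannot be told apart from sex.

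**Figure D4:**
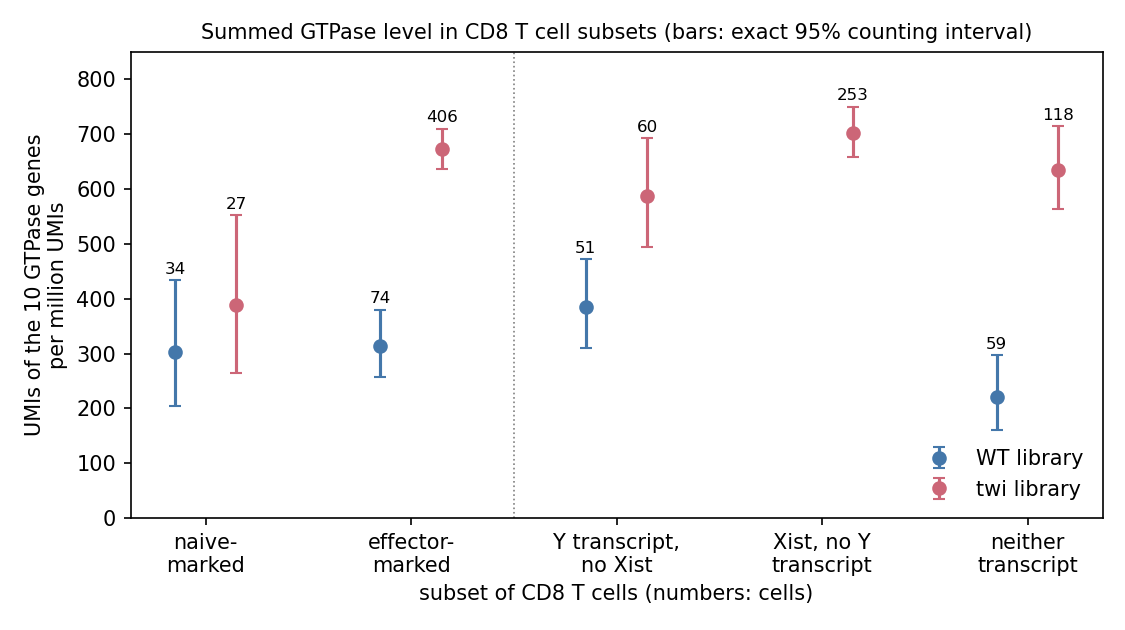
Summed level of the 10 GTPase genes in subsets of CD8+ T cells, in CPM, for WT (blue) and twi (red); lines are exact 95% counting intervals and numbers are cells. Effector-marked cells stood at 314 in WT and 672 in twi, naive-marked cells overlapped, and WT had no cell with *Xist* alone.

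The remaining T cell classes also had summed levels that were higher in twi by the counts. CD4+ T cells held 38 UMIs in 48 WT cells and 119 in 73 twi cells, or 253 and 473 CPM, and the CPM ratio was 1.87 (95% interval 1.29 to 2.77). Of the 6 members with at least 10 UMIs in CD4+ T cells, 3 were at least 2 times higher in twi (*Gbp3*, *Gbp7* and *Irgm1*). Beside this, 10.6% of all genes were. The median log2 ratio of the 6 was 0.93, beside 0.03 over all genes. All 3 had under 10 UMIs in WT and reached the minimum only with their twi UMIs. *Gbp3* had 2 and 8 UMIs (ratio 2.39, 95% interval 0.477 to 23.1). *Irgm1* had 2 and 12 (ratio 3.585, 95% interval 0.798 to 33), so both intervals held 1. *Gbp7* had 3 UMIs in WT and 31 in twi CD4+ T cells (ratio 6.17, 95% interval 1.93 to 31.6), whereas *Igtp* had 12 and 14 (ratio 0.697, 95% interval 0.299 to 1.65). Thinned to 1000 UMIs before the classes were set, the summed CD4+ ratio was 3.51, from 6 and 30 UMIs. It was 1.41 (95% interval 0.818 to 2.50) with a stricter gate, which left 15 and 22 cells, and 1.70 (95% interval 0.9755 to 2.97) among cells with a Y-linked transcript, so that both intervals held 1. Monocyte markers in CD4+ T cells were at 33.3 CPM in WT and 167 in twi, and their part in the result was not tested.

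Other T cells held 125 UMIs in 141 WT cells and 582 in 266 twi cells, or 324 and 598 CPM, and the CPM ratio was 1.84 (95% interval 1.52 to 2.26). Among cells with a Y-linked transcript the ratio was 1.39 (95% interval 0.969 to 2.01). Hemoglobin transcripts in this class were at 1143 CPM in WT and 7181.5 in twi and monocyte markers at 135 and 270.1; scaled without hemoglobin, *S100a8* and *S100a9*, the ratio was 1.86. Here 4 of 10 members were at least 2 times higher in twi (*Gbp2*, *Irgm1*, *Irgm2* and *Iigp1*), beside 7.57% of all genes, with a median log2 ratio of 0.81 beside 0.003. *Irgm1* had 8 and 60 UMIs (ratio 2.97, 95% interval 1.42 to 7.20) and *Gbp2* 13 and 76 (ratio 2.32, 95% interval 1.28 to 4.55). *Irgm2* had 1 and 10 UMIs (ratio 3.96, 95% interval 0.564 to 172). *Iigp1* had 4 and 28 UMIs (ratio 2.77, 95% interval 0.970 to 10.9). *Irgm1*, *Irgm2* and *Iigp1* had under 10 UMIs in WT and reached the minimum only with their twi UMIs. A single twi cell of this class held 43 member UMIs, the most in any cell of the 9 classes. γδ-marker T cells held 5 UMIs in 9 WT cells and 77 in 42 twi cells, and the CPM ratio was 2.14 (95% interval 0.878 to 6.77), which was 0.830 among cells with a Y-linked transcript (2 WT and 6 twi cells). *Igtp* gave 3 of the 5 and 25 of the 77 UMIs. B cell markers were in 38.1% of these twi cells and 0% of the 9 WT cells, and in 14.7% of twi and 19.9% of WT other T cells. *Blk* is also a B cell gene, and the part of this in the ratio was not tested.

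NK cells stood at 266 CPM in WT (51 UMIs, 67 cells) and 398 in twi (91 UMIs, 62 cells), and the CPM ratio was 1.497 (95% interval 1.05 to 2.15). The interval held 1 when cells were thinned before the classes were set (1.27, 0.665 to 2.43) and among cells with a Y-linked transcript (1.84, 0.969 to 3.56). Of 6 members with at least 10 UMIs, *Gbp4* alone was at least 2 times higher in twi, with 5 UMIs in WT and 21 in twi (ratio 3.52, 95% interval 1.29 to 11.96), beside 7.47% of all genes. *Gbp4* reached the minimum of 10 UMIs only with its twi UMIs. The median log2 ratio of the 6 was 0.28, beside -0.02 over all genes. *Gbp7* had 16 and 21 UMIs (ratio 1.10, 95% interval 0.548 to 2.26). The GBPs of chromosome 3 together had a ratio of 1.04 in NK cells (95% interval 0.622 to 1.73) and those of chromosome 5 a ratio of 4.87 (95% interval 1.86 to 16.1), and a test of that difference was not made. *Gbp9* had 0 UMIs in 67 WT NK cells, which allows up to 15.6 CPM, and 8 UMIs (34.96 CPM) in twi. *Gbp6* had 0 UMIs in NK cells of both libraries, which allows a share of cells with a UMI of up to 4.48% and 4.84%.

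B cells had a lower GTPase level than CD8+ T cells in both libraries, and the interval of the twi-to-WT ratio held 1. They stood at 152 CPM in WT (199 UMIs, 543 cells) and 195 in twi (70 UMIs, 147 cells), and the CPM ratio was 1.29 (95% interval 0.968 to 1.70). Of 7 members tested, 1 was at least 2 times higher in twi, *Gbp4*, with 20 UMIs in WT and 16 in twi, or 15.2 and 44.7 CPM (ratio 2.93, 95% interval 1.42 to 5.96), beside 4.07% of all genes. The median log2 ratio of the 7 was 0.14, beside -0.01 over all genes. *Gbp9* was at 42.6 and 41.9 CPM, and the CPM ratio was 0.982 (95% interval 0.516 to 1.76).

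The makeup of the member UMIs was another in B cells than in CD8+ T cells. *Gbp9* gave 28.1% of the member UMIs in WT B cells (95% interval 22.0 to 34.9%) and 10.9% in WT CD8+ T cells (95% interval 6.26 to 17.4%). In twi the values were 21.4% (95% interval 12.5 to 32.9%) and 10.5% (95% interval 8.94 to 12.3%), so the intervals were apart in both libraries, though no test was made. *Gbp7* gave 6.03% in WT B cells against 17.5% in WT CD8+ T cells, and 7.14% against 19.7% in twi. *Irgm1* gave 16.6% against 4.38% in WT, and 20.0% against 9.93% in twi. The twi intervals of *Irgm1* overlapped, at 11.39 to 31.27% in B cells and 8.395 to 11.65% in CD8+ T cells. *Irgm2* had 0 UMIs in 543 WT and 147 twi B cells, which allows up to 2.28 and 8.37 CPM.

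The myeloid classes gave few UMIs. Neutrophils stood at 36.6 CPM in WT (21 UMIs, 201 cells) and 151 in twi (21 UMIs, 51 cells), and the CPM ratio was 4.13 (95% interval 2.15 to 7.95). The 11 highest WT and 3 highest twi neutrophils held 71.4% and 52.4% of these UMIs. Without the 5% of cells with the most member UMIs per UMI the ratio was 10.1, and among cells with a Y-linked transcript the 5 twi cells had 0 UMIs. *Gbp7* had 2 UMIs in WT and 7 in twi neutrophils (ratio 14.5, 95% interval 2.75 to 143). Transcripts of *Cd8a* and *Cd8b1* in neutrophils moved the same way, from 6.97 CPM in WT (1.99% of cells) to 57.6 in twi (13.7%), and their part in the result was not tested. Monocytes held 39 and 42 UMIs in 33 and 36 cells, or 146 and 206 CPM, and the CPM ratio was 1.41 (95% interval 0.892 to 2.24), and 0.987 as mean UMIs per cell.

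Microglia were the class in which the summed level was lower in twi by the counts, at 353 CPM in WT (15 UMIs, 17 cells) and 165 in twi (13 UMIs, 12 cells). The ratio was 0.467 (95% interval 0.204 to 1.05) and turned to 1.23 as mean UMIs per cell, with medians of 2351 UMIs in WT and 6077 in twi cells, and to 1.29 when cells were thinned. *Gbp7* gave 6 WT and 2 twi UMIs and *Irgm1* 5 and 4.

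**Figure D5:**
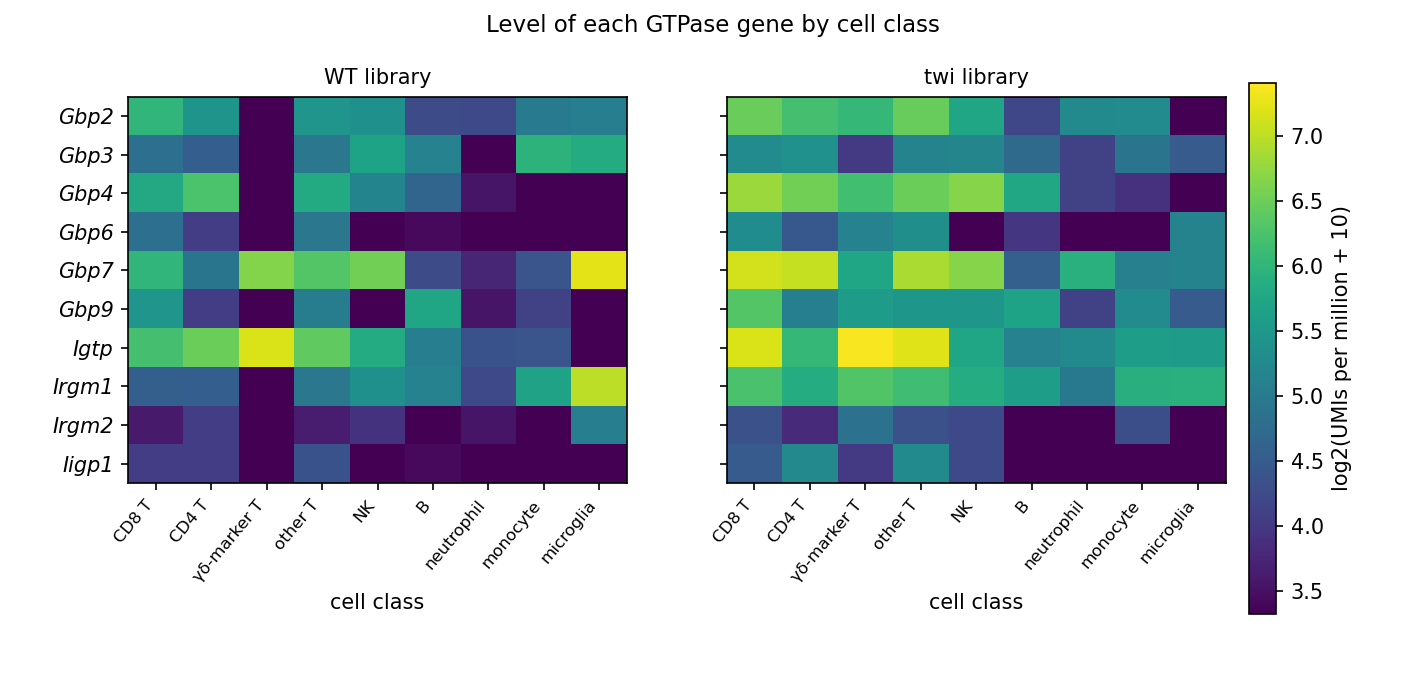
Level of each GTPase gene (rows) in each cell class (columns) of the WT and twi libraries, as log2(CPM + 10). Colors are to be compared along a row; in twi, the highest class is γδ-marker T cells for *Igtp* and CD8+ T cells for *Gbp7* and *Gbp4*, and *Irgm2* and *Iigp1* are at the lowest color, 0 UMIs, in B cells and neutrophils.

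By the counts alone, the order of the summed levels differed between the libraries, and microglia, the highest class in WT, rested on 15 UMIs. In twi, CD8+ T cells were highest, followed by other T cells (ratio of neighbours 1.11, 95% interval 1.003 to 1.22), γδ-marker T cells, CD4+ T cells and NK cells, of which no neighbours differed beyond their intervals. The step from NK cells to monocytes was 1.93 times (95% interval 1.33 to 2.86), and monocytes, B cells, microglia and neutrophils did not differ from their neighbours beyond the intervals. In WT, neighbours from microglia through the T cell classes, NK cells and B cells to monocytes did not differ beyond theirs, and the step from monocytes to neutrophils was 3.98 times (95% interval 2.28 to 7.11).

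Over all cells the members stood at 184 CPM in WT (690 UMIs) and 513 in twi (2457 UMIs), and the CPM ratio was 2.78 (95% interval 2.55 to 3.03). This sum mixes the level within classes with the share of each class. With the twi level of each class at the WT share of UMIs per class, the sum would be 312 CPM, or 1.69 times WT. With the WT levels at the twi shares it would be 269, or 1.46 times WT. CD8+ T cells held 19.9% of all member UMIs in WT and 55.3% in twi, and B cells 28.8% and 2.85%. Over all cells *Iigp1* had 10 UMIs in WT and 68 in twi (ratio 5.31, 95% interval 2.72 to 11.6), and *Gbp3* 77 and 119 (ratio 1.21, 95% interval 0.898 to 1.63).

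The interferon pathway around the GTPases was described in CD8+ T cells from 6 gene lists, each called at 2 times in either direction on the scale with 0.5 UMI added. Over all 8973 genes, 10.1% were called higher and 5.20% lower, so 1 call in a list of 7 or 9 genes is near that share. Called genes with under 10 UMIs in WT reached the minimum of 10 only with their twi UMIs. Of the interferon γ signaling genes, 1 of 9 was at least 2 times higher in twi, *Socs1*, the feedback inhibitor of JAK kinases, with 13 UMIs in WT and 153 in twi (ratio 2.52, 95% interval 1.43 to 4.84). *Ifngr2*, a receptor chain, was the 1 gene at least 2 times lower, but with only 3 and 7 UMIs (ratio 0.4999, 95% interval 0.114 to 2.996). The list's median log2 ratio was 0.41, beside 0.09 over all genes. *Ifng*, which encodes the cytokine, had 24 UMIs in 14 WT cells and 133 UMIs in 68 twi cells, or 54.5 and 64.7 CPM, and the CPM ratio was 1.19 (95% interval 0.765 to 1.92). *Ifngr1*, the ligand-binding receptor chain, stood at 272 and 429 CPM (ratio 1.57, 95% interval 1.30 to 1.92). *Irf1*, a transcription factor of the response, stood at 65.8 and 107 CPM (ratio 1.63, 95% interval 1.10 to 2.48). *Jak1*, of the same list, went the other way. It had 161 UMIs in WT and 544 in twi, or 365.5 and 264.6 CPM (ratio 0.724, 95% interval 0.606 to 0.8685).

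Type I interferon signaling genes gave 3 of 7 at least 2 times higher and 0 lower, with a median of 0.79. *Usp18*, which restrains the type I receptor, had 13 UMIs in WT and 187 in twi (ratio 3.08, 95% interval 1.76 to 5.90). *Irf7*, a transcription factor of the type I response, had 33 and 340 (ratio 2.21, 95% interval 1.54 to 3.26), and *Stat2* had 3 and 39 (ratio 2.79, 95% interval 0.885 to 14.1). Both interferon families induce many of the same genes, so these counts do not tell them apart.

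Of the other interferon γ targets, 4 of 8 reached 10 UMIs and 1 was at least 2 times higher, with a median log2 ratio of 0.70. *Cxcl10*, a chemokine that draws CXCR3+ T cells, had 8 UMIs in 1 WT cell and 142 UMIs in 41 twi cells (ratio 3.80, 95% interval 1.88 to 8.98). Among the related GTPases, 1 of 7 tested was at least 2 times higher, the antiviral GTPase *Mx1*, with 5 UMIs in 2 WT cells and 57 in 41 twi cells (ratio 2.44, 95% interval 0.988 to 7.81). The list's median log2 ratio was -0.24, against 1.02 for the 10 members, which were chosen with earlier results of these data known. Of the 7 tested, 6 were called in neither direction. *Ifi47* had 75 and 511 UMIs (ratio 1.46, 95% interval 1.14 to 1.89) and *Gbp8* 22 and 86 (ratio 0.84, 95% interval 0.519 to 1.41). *Tgtp1* had 10 and 28 (ratio 0.600, 95% interval 0.283 to 1.38) and *Tgtp2* 10 and 41 (ratio 0.878, 95% interval 0.433 to 1.97). *Gvin1* had 4 and 11 (ratio 0.589, 95% interval 0.175 to 2.54) and *Gbp5* 3 and 27 (ratio 1.93, 95% interval 0.593 to 9.93). Inflammasome genes gave 1 of 4, *Gsdmd*, which encodes the pore-forming gasdermin D, with 6 and 81 UMIs (ratio 2.89, 95% interval 1.27 to 8.11), and a median log2 ratio of 0.50. Of the genes for ATG8 conjugation, which guides GBPs and IRGs to vacuoles, 0 of 10 were called in either direction, and their median log2 ratio was 0.07.

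The genes whose pattern was most like that of the summed members were sought over 14 sums, the WT and twi sums of 7 classes without the γδ-marker and other T cells, among 8235 other genes with at least 50 UMIs. Pearson correlations of log2(CPM + 10) were 0.93 for *Mitd1*, 0.88 for *Fam58b*, 0.88 for *Lpxn*, 0.85 for *Mbnl1* and 0.84 for *Evl*. The single members lay between 0.43 (*Gbp9*) and 0.84 (*Gbp7*). Each member is part of the sum, which raises its correlation, so these values cannot be set beside those of the other genes. The 14 sums come from 2 libraries and share their depth and free RNA, and these values are descriptions with no p. *Mitd1* stood at 63.6 CPM in WT and 102 in twi CD8+ T cells, and *Evl* at 297 and 300.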

How the data were processed

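For both libraries the authors deposited unnormalized UMI counts by gene and barcode, made with Cell Ranger 2.1.1 on mm10 according to the submitters' processing notes; the study's methods describe alignment with STAR, a filter on mapping quality and an adaptive UMI threshold for cells. The methods give 30 min of digestion and the labels 1 h, with other enzymes; either can move which cells survive. Reads shared by 2 genes are not counted, which lowers overlapping and near-identical genes.

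Here, barcodes over 15% mitochondrial UMIs were removed, cells were classed by marker UMIs, and UMIs of the 10 members were summed per class and library and divided by the class's UMIs. B cells had at least 3 UMIs of B cell markers, among them *Cd79a*, *Cd79b* and *Ms4a1*, neutrophils at least 1% *S100a8* and *S100a9*, microglia at least 3 UMIs of C1q genes, monocytes at least 2 of *Csf1r*, *Ms4a6c* and *F13a1*, and NK cells at least 2 of *Ncr1*, *Klrb1c* and *Klre1* without *Cd3* genes. Barcodes meeting at least 2 of the T, B, neutrophil and C1q gates were left out (73 WT, 55 twi), as were 29 and 23 that met none; no doublet caller was run. The planned γδ gate on *Trdc* had no row to use and was replaced, after the data had been seen, by the IL-17-type markers. Intervals are exact Poisson for sums, exact conditional binomial for ratios and Clopper-Pearson for shares (scipy 1.17.1, numpy 2.4.6), at 95%; a count of 0 allows up to 3 counts. Thinning drew 1000 UMIs per cell. Calls needed 10 UMIs over both sums and 2 times on log2 CPM with 0.5 UMI added. Named genes were the 10 members, *Galc*, *Ifng*, *Ifngr1*, *Irf1*, the called genes of the lists and the 5 most similar genes. *Ifi47*, *Gbp8*, *Tgtp1*, *Tgtp2*, *Gvin1*, *Gbp5* and *Jak1* were added for comparison after the data had been seen. *Gbp10*, *Trdc* and the gate markers are named only for the method. Coordinates of genes are from GENCODE M21 (GRCm38). The 2-times call and the ratio interval were tested on simulated gene sums, drawn independently and without single cells. The gates, the thinning and the counts per cell were not tested in this way. Some gate markers and 1 gene that the naming rule takes are not reported here. The members and lists were chosen with earlier results of these data known. With 1 library per genotype, no p-value is given.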

Additional observations from a re-analysis of the deposited data

Results flagged for a closer look

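Barcodes that met no class gate, which the comparisons did not use, held more GTPase UMIs in twi than in WT. They had 8 UMIs in 29 WT barcodes (108 CPM) and 37 UMIs in 23 twi barcodes (400.1 CPM), a ratio of 3.72 (95% interval 1.70 to 9.24). A single twi barcode held 22 of the 37 UMIs, and without the highest barcode of each library the levels were 82.5 and 169 CPM, from 6 and 15 UMIs. Hemoglobin genes made up over 10% of the UMIs in 6 of the WT and 3 of the twi barcodes. What these cells are was not tested.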

How the results depend on the processing

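Alternatives were compared with the values for classes, all cells and single members. Of these, 133 of 149 summed, median or count values and 112 of 117 single-member ratios stayed within their interval, or within 1.5 times for a count. For the median member log2 ratio, the medians of the members' lower and upper limits served instead, 0.08 to 1.94. The 0.38 of cells with a Y-linked transcript thus counted as within. The tallies include settings that could not alter a value and intervals as wide as 0.724 to 186 for *Irgm2*. Thinning to 1000 UMIs before the classes were set gave ratios of 4.70 in CD8+ T cells, 3.51 in CD4+ T cells, 1.29 in microglia and 3.10 over all cells, and a median member log2 ratio of 2.145 in CD8+ T cells. Mean UMIs per cell, not scaled, gave 2.47 in other T cells, 1.23 in microglia and 3.75 over all cells. Scaling without mitochondrial, ribosomal and member genes gave 3.10 over all cells. Cells with a Y-linked transcript and no *Xist* gave 1.52 in CD8+ T cells, with 1 member called among those that reached 10 UMIs. They also gave 0.830 in γδ-marker T cells, 1.39 in other T cells and 1.93 over all cells. In neutrophils the ratio was 0, the 1 reversal, where 5 twi cells had 0 UMIs. Leaving out the 5% of cells with the most member UMIs per UMI gave 10.1 in neutrophils. The causes were not tested. The summed ratio of CD8+ T cells was above 1 under all 12 alternatives run, between 1.52 and 4.70, and that of B cells between 1.17 and 1.496. The 12 include the allowance for *Cd3* UMIs in other classes, which could not alter the CD8+ T cell sums. Allowing 1 or 2 *Cd3* UMIs in other classes, scaling without *S100a8*, *S100a9* and hemoglobin genes, and 1 UMI for the γδ markers were chosen after seeing the data and moved no value past its interval. No paired analysis was possible because each genotype has 1 library. Depth limits the γδ-marker, myeloid and microglia sums and *Irgm2* and *Iigp1* most, since they rest on few UMIs.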
